A study of Caenorhabditis elegans with 6 samples.

Results

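The fatty acid desaturase and elongase genes described here are 10 named genes of the nematode *Caenorhabditis elegans*, *fat-1* to *fat-7*, *elo-2*, *elo-5* and *elo-6*. They were found by symbol among the 46778 genes of the deposited table, and all 10 passed the filter on low values, at least 1 TPM in at least 3 libraries, that 12912 genes passed. TPM is a share of transcripts scaled by gene length, so levels of different genes can be compared. That comparison is limited in a library with a length trend of its own, as described below for control replicate 3. Total RNA was sequenced in 6 libraries, 3 from control animals and 3 from animals given JM03. The series title describes JM03 as derived from crotamiton, a drug used against scabies, and names the channel OSM-9, lifespan, and resistance to oxidative and hypertonic stress. The sources used here give no strain, stage, dose, vehicle or exposure time. Nor is it known from the labels if replicates came from separate cultures, and the spread on which the p-values rest may therefore be technical.

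*C. elegans* makes its long unsaturated fatty acids itself, starting from saturated ones taken from bacteria or built from acetyl-CoA. A delta-9 desaturase places the first double bond, further desaturases add one bond each, and elongases lengthen the chain, up to the polyunsaturated fatty acids of membranes. A separate branch elongates a primer derived from leucine into monomethyl branched-chain fatty acids, which the worm needs for growth and for its sphingolipids. Intestine and epidermis are the known main sites of these enzymes, and the delta-9 genes are known targets of SBP-1, the worm counterpart of the lipogenic factor SREBP, and of the nuclear receptors NHR-49 and NHR-80.

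One library, control replicate 3, was unlike the rest, and this touches most values below. Across tested genes its rank correlation (Spearman) with each of the rest was 0.784 to 0.866, while the rest correlated with one another at 0.901 to 0.978. Ribosomal RNA took 4.37% of its TPM and 0.338% to 0.639% of that of the others. Long transcripts were low in it. Its deviation from each gene's median correlated with the length of the transcript at -0.547 (Spearman, across genes, which are not independent replicates). Control replicates 1 and 2 had -0.003 and -0.008, and JM03 replicates 1 to 3 had 0.105, 0.039 and 0.154. The length trend thus also differed between the groups without control replicate 3. The median log2 fold change of all tested genes, JM03 minus control on the log2(TPM + 1) scale, was 0.35 with control replicate 3 and 0.046 without it. The depth is unknown, since TPM does not keep it. In RNA from whole samples, fewer cells of a type and less RNA per cell cannot be told apart.

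Of the 10 genes, 8 lie on chromosome IV and 2 on chromosome V (WBcel235). *fat-3* (WBGene00001395, IV:9803023 to 9806119) and *fat-4* (WBGene00001396, IV:9799429 to 9802226) are 796 bp apart on the same strand. *fat-1* (WBGene00001393, IV:13315644 to 13318811) and *fat-2* (WBGene00001394, IV:13323873 to 13326395) are 5061 bp apart on the same strand, also with no protein-coding gene between them. *elo-5* (WBGene00001243, IV:5374616 to 5377117) and *elo-6* (WBGene00001244, IV:5386629 to 5388559) are 9511 bp apart, with 3 protein-coding genes between them. *fat-6* (WBGene00001398) lies at IV:11913692 to 11915687 and *elo-2* (WBGene00001240) at IV:17466062 to 17467408. On chromosome V, *fat-5* (WBGene00001397) lies at 17725004 to 17726818 and *fat-7* (WBGene00001399) at 7151353 to 7153146. All 10 are protein-coding, with longest annotated transcripts of 922 to 1540 nt, on both sides of the median of 1267 nt for all tested genes. The exons of *elo-5* overlap those of F41H10.3 on the opposite strand by 162 bp, and those of *fat-5* overlap *twk-42* by 28 bp. The sources used here do not say whether strand was used in counting, so reads from those stretches cannot be assigned.

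JM03 was compared with control to ask which of these genes differed in treated animals, and none passed the test. Of the 10 log2 fold changes 9 were above 0, and the 3 highest were those of the elongases *elo-6*, *elo-2* and *elo-5*, whose mean TPM was 2.20, 1.93 and 1.86 times that of control. Among the desaturases the highest were *fat-6* and *fat-5*, at 1.52 and 1.46 times control. *fat-3*, at 0.921 times control, was the one gene with a log2 fold change below 0. 0 of the 10 genes had a Benjamini-Hochberg adjusted p below 0.05 in limma over all 12912 genes, where 0.132% of all tested genes did. *elo-6* alone had an unadjusted limma p below 0.05, where 11.7% of all tested genes did.

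Without control replicate 3, 7 of the 10 log2 fold changes were above 0. Among all tested genes 72.66% were above 0 with the 6 libraries and 56.45% without control replicate 3. The median of the 10 genes was 0.47 with the 6 libraries and 0.24 without that replicate, beside 0.35 and 0.046 for all tested genes. When the trend of each library with transcript length was removed, an alternative chosen after seeing the data, 6 of the 10 were above 0 and their median was 0.18, beside 0.035 for all. Every JM03 value lay above every control value for *elo-6* and *fat-5*, 2 of the 10 genes, and the groups were separated in that direction for 21.9% of all tested genes. No gene of the 10 had every JM03 value below every control value, which 9.41% of all tested genes had.

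**Figure D1:**
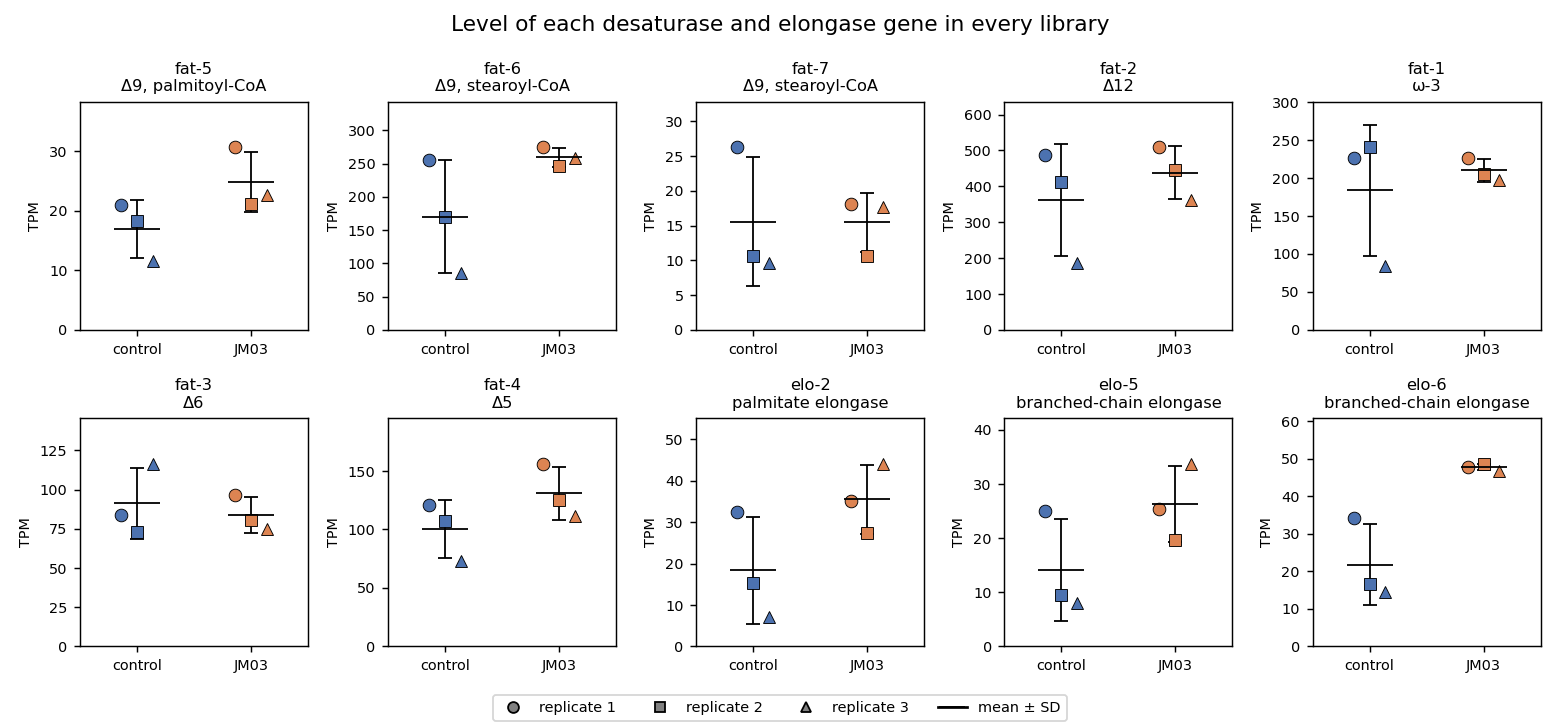
TPM of each of the 10 genes (vertical axes, from 0) in the 3 control and the 3 JM03 libraries, with replicates 1, 2 and 3 as circles, squares and triangles and the mean ± SD as a line with bars. The JM03 values of *elo-6*, 46.8 to 48.6 TPM, all lie above the control values, while control replicate 3 is the lowest library for 9 of the 10 genes and the highest for *fat-3*.

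The delta-9 desaturases place the first double bond, FAT-5 mainly in palmitoyl-CoA and FAT-6 and FAT-7 in stearoyl-CoA, which gives oleic acid. *fat-6*, the most abundant of them, had 256, 170 and 85.6 TPM in control replicates 1 to 3 and 274, 246 and 258 TPM in JM03. The coefficient of variation was 5.47% in JM03 and 49.9% in control, and control replicate 1 lay among the JM03 values. In limma the log2 fold change was 0.74 ± 0.40 (SE; 95% interval -0.21 to 1.69, limma adjusted p = 0.480). Without control replicate 3 it was 0.31 (-0.15 to 0.77, limma adjusted p = 0.360).

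*fat-7* encodes the second stearoyl-CoA desaturase, a close paralog of FAT-6, so that reads can be split between the genes. It was the lowest of the 10 in every JM03 library, at 18.2, 10.6 and 17.7 TPM, and had 26.3, 10.7 and 9.69 TPM in control. Its highest value was in control replicate 1, and the groups overlapped. The means, 15.5 ± 9.29 TPM in control and 15.5 ± 4.25 in JM03 (SD, n = 3 each), differed by less than the spread. Its log2 fold change was 0.10 with an interval of -0.99 to 1.19 (limma adjusted p = 0.894). Its sign turned without control replicate 2 or 3 and without JM03 replicate 1 or 3 (-0.085, -0.15, -0.029 and -0.012).

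*fat-5*, the palmitoyl-CoA desaturase gene, had 21.1, 18.3 and 11.6 TPM in control and 30.7, 21.2 and 22.7 TPM in JM03. The groups did not overlap, but JM03 replicate 2 and control replicate 1 were nearly equal. On the log2 scale the difference was 0.55 ± 0.35 (SE; interval -0.29 to 1.38, limma adjusted p = 0.490), and 0.31 without control replicate 3 (limma adjusted p = 0.374).

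FAT-2 is the delta-12 desaturase that turns oleic acid into linoleic acid, the entry to polyunsaturated fatty acids, and its gene was the most abundant of the 10 in all 6 libraries. *fat-2* had 487, 413 and 187 TPM in control and 508, 445 and 362 TPM in JM03. Control replicates 1 and 2 lay within the JM03 range, and control replicate 3 below it. This gave a log2 fold change of 0.37 ± 0.38 (SE; interval -0.54 to 1.28, limma adjusted p = 0.551), and without control replicate 3 its sign turned, at -0.046 (-0.47 to 0.38, limma adjusted p = 0.878).

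FAT-1 is the omega-3 desaturase, an enzyme that mammals lack, which converts omega-6 into omega-3 fatty acids. *fat-1* had 226, 240.3 and 84.8 TPM in control and 227, 205 and 198 TPM in JM03. Control replicate 2 was above all JM03 values, and control replicate 1 was close to the highest of them. For *fat-1* the log2 fold change was 0.33 (interval -0.67 to 1.33, limma adjusted p = 0.617) and turned to -0.15 without control replicate 3 (-0.38 to 0.07, limma adjusted p = 0.362).

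FAT-3 and FAT-4 are the delta-6 and delta-5 desaturases, which act near the carboxyl end of the chain on the way to arachidonic and eicosapentaenoic acid. *fat-3* had 84.0, 73.1 and 116 TPM in control and 96.6, 80.5 and 74.8 TPM in JM03. It was highest in control replicate 3, the library in which the other 9 genes were lowest. That library was the highest for 11.8% and the lowest for 65.0% of all tested genes. The log2 fold change of *fat-3* was -0.099 (interval -0.77 to 0.58, limma adjusted p = 0.824) and turned to 0.089 without that library (-0.25 to 0.42, limma adjusted p = 0.697). With the transcript length trend removed, the log2 fold change of *fat-3* was -0.48 (limma adjusted p = 0.547), its lowest value in any setting.

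*fat-4*, whose gene ends 796 bp from *fat-3*, had 121, 107 and 73.4 TPM in control and 156, 125 and 111 TPM in JM03. The lowest JM03 value lay between control replicates 1 and 2. JM03 minus control was 0.39 ± 0.29 (SE; interval -0.30 to 1.08, limma adjusted p = 0.493), 0.18 without control replicate 3, and -0.003 when the transcript length trend was removed.

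**Figure D2:**
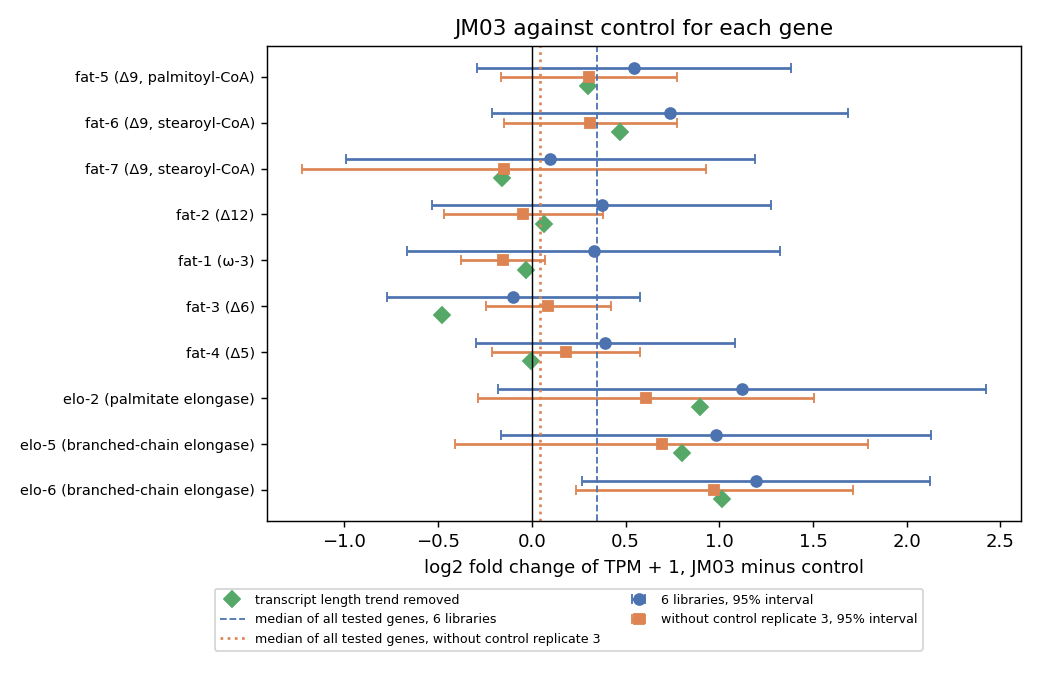
Log2 fold change of TPM + 1, JM03 minus control (horizontal axis), for each gene with the 6 libraries (circles), without control replicate 3 (squares) and with the transcript length trend removed (diamonds). Bars are 95% intervals and vertical lines mark 0 and the medians of all tested genes, 0.35 and 0.046. The intervals of *elo-6*, 0.27 to 2.13 and 0.24 to 1.71, lie above 0 and those of the other 9 genes cross it.

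ELO-5 and ELO-6 are the elongases of the branched-chain branch. *elo-6* had 34.2, 16.5 and 14.6 TPM in control and 47.9, 48.6 and 46.8 TPM in JM03. The JM03 values were nearly equal, with a coefficient of variation of 1.88%, against 49.6% in control, and each was above the highest control. The log2 fold change was 1.20 ± 0.39 (SE; interval 0.27 to 2.13, limma adjusted p = 0.322). The interval is that of a single gene and is not corrected for the 12912 genes tested. It was 0.97 without control replicate 3 (0.24 to 1.71, limma adjusted p = 0.233) and 1.01 with the transcript length trend removed (limma adjusted p = 0.149). Array quality weights, which gave control replicate 3 a weight of 0.0304, called *elo-6* (1.20, limma adjusted p = 0.0243). In that fit 17.1% of all tested genes were called, and *elo-6* was the only one of the 10 genes among them.

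*elo-5* had 25.0, 9.47 and 8.01 TPM in control and 25.4, 19.7 and 33.7 TPM in JM03. Control replicate 1 lay among the JM03 values, and the other controls were below them. For *elo-5* the log2 fold change was 0.98 ± 0.48 (SE; interval -0.16 to 2.13, limma adjusted p = 0.469), and 0.69 without control replicate 3 (-0.41 to 1.79). F41H10.3, which overlaps *elo-5* on the opposite strand, was at 43.5, 41.5 and 2.79 TPM in control and 47.5, 42.6 and 51.6 TPM in JM03.

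ELO-2 lengthens palmitic acid, which feeds the stearoyl-CoA desaturases, and also acts in the synthesis of polyunsaturated fatty acids. *elo-2* had 32.6, 15.4 and 7.10 TPM in control and 35.03, 27.4 and 44.0 TPM in JM03. As for *elo-5*, control replicate 1 was within the JM03 range and the other controls were below it. The log2 fold change was 1.12 ± 0.55 (SE; interval -0.18 to 2.43, limma adjusted p = 0.469). Without control replicate 3 it was 0.61 (-0.29 to 1.51, limma adjusted p = 0.359), and with the transcript length trend removed 0.90 (limma adjusted p = 0.341).

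The controls also differed in the level of intestine markers. The summed TPM of 14 intestine markers was 10060, 5365 and 4097 in control replicates 1 to 3 and 11330, 8424 and 9359 in JM03, so that control replicate 1 was within the JM03 range and the other controls below it. The yolk protein genes *vit-2*, *vit-5* and *vit-6* and the protease gene *asp-1* made up 87.2% to 92.6% of the sum, and 13 of the 14 markers, all but *erm-1*, were higher in control replicate 1 than in control replicate 2. Several of the 10 genes departed from the order of the sum. *fat-1* was highest in control replicate 2, and *fat-3* in control replicate 3, where the sum was lowest. *fat-7* was highest in control replicate 1, while the sum was highest in JM03 replicate 1. *fat-2* was lower in JM03 replicate 3 (362 TPM) than in control replicate 2 (413 TPM), where the sum was lower. These are examples of departure, and the order was not compared for every gene. *fat-2*, *fat-4*, *fat-5* and *fat-6*, as the sum, were lowest in control replicate 3 and highest in JM03 replicate 1. Single markers departed from the sum as well: *mtl-2* was highest in control replicate 3, at 231 TPM. Control replicate 1 was above control replicate 2 for 9 of the 10 genes, all but *fat-1*, and for 48.9% of all tested genes. The step between these controls, as a log2 difference of TPM + 1, was 1.31 for *elo-5*, 1.22 for *fat-7*, 1.03 for *elo-2*, 1.00 for *elo-6* and 0.59 for *fat-6*. For *fat-5*, *fat-3*, *fat-4* and *fat-2* it was 0.17 to 0.24. The part of intestinal RNA in these results was not tested.

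Other markers differed between the libraries as well. The summed TPM of 10 body wall muscle markers was 164 to 472 in control and 389.9 to 794 in JM03, and that of 12 oocyte markers 3191 to 6492 and 6869 to 8034. The 12 sperm markers had 1199 to 2804 TPM in control and 441 to 801 in JM03. The 10 epidermis markers, mostly cuticle collagens, had 13.6 to 53.2 TPM in control and 41.1 to 138 in JM03. Of these 6 were below the filter, and *sqt-1* and *bli-1* were at 0 to 0.21 TPM. *col-19* alone had 36.2, 6.45 and 19.8 TPM in control and 31.8, 29.3 and 106 TPM in JM03. *col-10* had 5.49, 0.46 and 1.38 TPM in control and 0.93, 2.69 and 1.79 TPM in JM03. Of the 4 tested epidermis markers, 3 had log2 fold changes above 0, and 2 without control replicate 3. The sum of 138 was that of JM03 replicate 3, and JM03 replicates 1 and 2 had 41.1 and 41.6. The part of these tissues in the results was not tested.

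By level, the 10 genes fell in 2 ranges. The desaturases *fat-2*, *fat-6*, *fat-1*, *fat-4* and *fat-3*, in descending order of their mean over the 6 libraries, had 73.1 to 508 TPM in all libraries, and *elo-6*, *elo-2*, *fat-5*, *elo-5* and *fat-7* had 7.10 to 48.6 TPM. *fat-2* was above *fat-6*, *fat-1* above *fat-4*, *fat-3* above *elo-6* and *elo-6* above *elo-2* in all 6 libraries. *fat-6* was above *fat-1*, and *fat-4* above *fat-3*, in 5 of 6 libraries. The order among *elo-2*, *fat-5*, *elo-5* and *fat-7* changed between libraries, each being above the next in 3 or 4 of 6. Among all tested genes of a library, *fat-2* was at percentiles 95.7 to 98.2 and *fat-7* at percentiles 43.6 to 58.7.

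Shares within a library do not depend on the total to which TPM is scaled. A length trend such as that of control replicate 3 can still enter shares and ratios. The 10 genes together had 1313, 1074 and 598 TPM in control and 1419, 1229 and 1169 TPM in JM03. The branched-chain elongases took 4.51%, 2.42% and 3.77% of that sum in control and 5.17%, 5.55% and 6.89% in JM03. Every JM03 share was above every control share. Of the genes in this step, *elo-6* was separated in the same way by its TPM, while the TPM of *elo-5* overlapped between groups. How often shares of other gene sets separate was not computed. The delta-9 desaturases took 23.1%, 18.5% and 17.9% in control and 22.8%, 22.6% and 25.5% in JM03, where control replicate 1 overlapped the JM03 range. *elo-2* took 2.48%, 1.44% and 1.19% in control and 2.47%, 2.23% and 3.77% in JM03. The front-end desaturases *fat-3* and *fat-4* took 31.7% in control replicate 3 and 15.6% to 17.8% in the other 5 libraries. The shares of *fat-2* overlapped between groups, at 31.3% to 38.4% in control and 30.97% to 36.2% in JM03, as did those of *fat-1*, at 14.2% to 22.4% and 16.0% to 16.9%. With 3 libraries a group no test was made of shares or ratios.

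**Figure D3:**
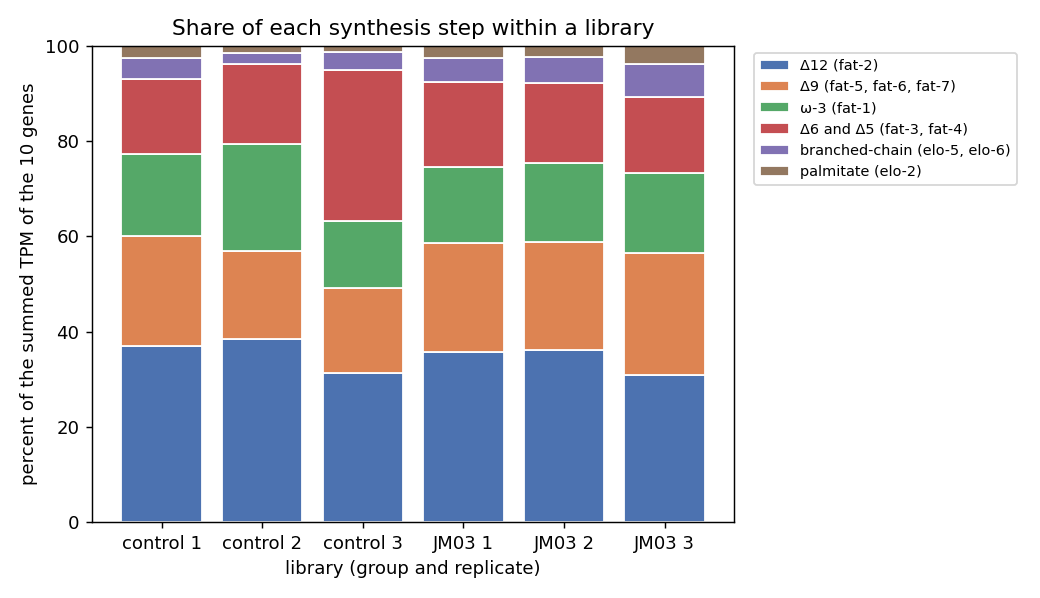
Share of the summed TPM of the 10 genes held by each synthesis step (vertical axis, percent) in each library (horizontal axis). The branched-chain elongases hold 5.17% to 6.89% in the JM03 libraries and 2.42% to 4.51% in the controls, and *fat-3* with *fat-4* hold 31.7% in control replicate 3.

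Of 10 ratios computed between pairs of genes within a library, 2 had groups that did not overlap, *fat-2* to *fat-6* and *fat-4* to *fat-3*. For levels of single genes, the groups did not overlap, in either direction, for 31.3% of all tested genes. No such share was computed for ratios. *fat-2* had 1.91, 2.43 and 2.19 times the TPM of *fat-6* in control and 1.85, 1.81 and 1.40 times in JM03, so that each JM03 ratio was below each control ratio. The difference of the mean log2 ratios was -0.37, and -0.36 without control replicate 3. *fat-7* had 0.103, 0.0628 and 0.113 times the TPM of *fat-6* in control and 0.0662, 0.0431 and 0.0688 times in JM03, where the lowest control overlapped the JM03 range.

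*fat-4* had 1.44, 1.47 and 0.631 times the TPM of *fat-3* in control and 1.61, 1.56 and 1.49 times in JM03. The groups did not overlap, and the difference of the mean log2 ratios was 0.50, which dropped to 0.093 without control replicate 3. *elo-6* had 1.37 to 1.82 times the TPM of *elo-5* in control and 1.39 to 2.47 times in JM03, with overlap. *elo-5* had 0.719 to 0.765 times the TPM of *elo-2* in JM03, and its ratio in control, 0.614 to 1.13, covered that range. *fat-1* had 0.453 to 0.582 times the TPM of *fat-2* in control and 0.446 to 0.547 times in JM03, also with overlap. The mean log2 ratios of *fat-5* to *fat-6*, *fat-3* to *fat-2*, *elo-2* to *fat-6* and *elo-6* to *elo-2*, where the groups overlapped too, differed by -0.17, -0.47, 0.45 and 0.05 (JM03 minus control). Without control replicate 3 they differed by 0.006, 0.14, 0.32 and 0.37.

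**Figure D4:**
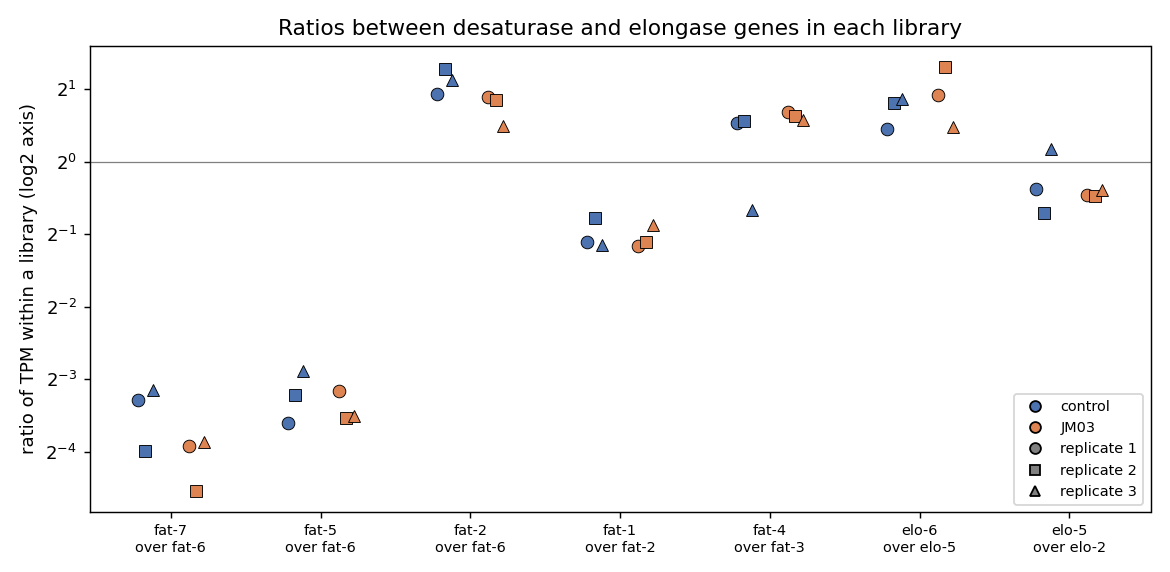
Ratio of the TPM of a pair of genes within each library (vertical axis, log2 scale), for control (blue) and JM03 (orange), with replicates 1, 2 and 3 as circles, squares and triangles. The ratio of *fat-2* to *fat-6* is 1.91 to 2.43 in control and 1.40 to 1.85 in JM03, and the ratio of *fat-4* to *fat-3* in control replicate 3, 0.631, is the one value of that pair below 1.

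The likeness of profiles was measured as the root mean square difference of log2(TPM + 1), centred on each gene's mean, over the 6 libraries. *elo-2* and *elo-5* were each other's nearest among the 10 genes, at 0.247, and at 0.101 without control replicate 3. *elo-6* was nearest to *elo-5*, at 0.278, but to *elo-2* without control replicate 3, at 0.289. *fat-1* and *fat-2* were each other's nearest at 0.147, and *fat-4* and *fat-5* at 0.114. Neither of these pairs was mutual without control replicate 3, where *fat-3* was the nearest to *fat-2* (0.0909) and *fat-4* (0.0589). With the 6 libraries *fat-3* was nearest to *fat-4* at 0.469. Many other genes came closer than these fellows: of the genes tested, the nearest to *elo-6* was B0361.9 at 0.060, to *elo-5* *fkh-3* at 0.070 and to *elo-2* C46G7.2 at 0.087. For *fat-6* it was F18C5.10 at 0.031, for *fat-1* *sphk-1* at 0.033, for *fat-4* ZK822.5 at 0.047 and for *fat-5* *smf-3* at 0.049. For *fat-3* it was *spp-22* at 0.051, for *fat-2* *octr-1* at 0.055 and for *fat-7* *clec-218* at 0.152. Control replicate 3 weighs in all of these values that were taken over the 6 libraries.

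The rest of the pathway was examined in 9 further lists of lipid genes, and no member of any of them was called over all genes, in either direction. Counts of positive genes below stand beside 72.66% of all tested genes with the 6 libraries and 56.45% without control replicate 3. Every JM03 value was above every control value for 21.9% of all tested genes. *elo-8*, *cytb-5.1* and *ceeh-1* had an unadjusted limma p below 0.05, beside 11.7% of all tested genes. With array quality weights, which called 17.1% of all tested genes, 6 of the 79 tested genes of these lists were called. *bcat-1*, *cytb-5.1* and *ceeh-1* were higher in JM03 there and the elongase genes *elo-4*, *elo-7* and *elo-8* lower (limma adjusted p = 0.0122 to 0.0335). *elo-4* falls outside the rule for named genes and was chosen after its values were seen. The other elongases and elongation enzymes were 9 genes, 6 of them with log2 fold changes above 0, and their median was 0.41 (5 genes and 0.078 without control replicate 3). *elo-8*, an elongase homologue, had 11.1, 29.7 and 48.4 TPM in control and 7.40, 8.24 and 3.69 TPM in JM03. Each JM03 value was below each control, and the order of the libraries within each group was that of the summed sperm markers, whose part in this was not tested. Its log2 fold change was -1.89 ± 0.57 (SE; limma adjusted p = 0.306), and -1.43 without control replicate 3. *elo-7* had a log2 fold change of -0.79 (limma adjusted p = 0.490), with 2.18 to 10.96 TPM in control and 2.02 to 3.64 in JM03. It was -1.32 without control replicate 3 and -0.36 without control replicate 2. *elo-3* had one of 0.93 (limma adjusted p = 0.490; 0.31 without control replicate 3).

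Upstream of the elongases, the 6 genes of synthesis from acetyl-CoA all had positive log2 fold changes (median 0.47), 4 of them without control replicate 3. *fasn-1*, the fatty acid synthase gene, had 9.34, 8.45 and 2.43 TPM in control and 12.2, 11.5 and 15.1 TPM in JM03. The groups did not overlap. For *fasn-1* the log2 fold change was 1.00 ± 0.47 (SE; limma adjusted p = 0.464), and 0.49 without control replicate 3. The ATP citrate lyase genes *acly-1* and *acly-2*, whose product is the acetyl-CoA for this synthesis, were at 1.18 and 0.69 on the log2 fold change scale (limma adjusted p = 0.490 and 0.505). Without control replicate 3 these were 0.38 and -0.006.

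Of the 8 genes listed for supply and activation of the branched-chain primer, all were positive with the 6 libraries (median 0.53). Without control replicate 3, 4 of them were positive (median 0.029). The list includes *ivd-1* and *mccc-1*, which act after the primer in leucine breakdown and were at -0.215 and -0.23 in that fit. *bcat-1*, the branched-chain aminotransferase gene at the first step of leucine breakdown, had 43.3, 25.9 and 4.37 TPM in control and 61.2, 50.2 and 48.0 TPM in JM03. Each JM03 value was above each control. The gene had a log2 fold change of 1.54 ± 0.76 (SE; limma adjusted p = 0.469), and 0.64 without control replicate 3. *acs-1*, whose acyl-CoA synthetase activates branched-chain fatty acids, had a log2 fold change of 0.89 and *dld-1*, a subunit of the branched-chain dehydrogenase, one of 0.50. Their limma adjusted p were 0.490 and 0.478, and without control replicate 3 the values were 0.30 and 0.35.

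Desaturases draw electrons from NADH through a reductase and cytochrome b5. *cytb-5.1*, a cytochrome b5 gene, had 76.5, 50.6 and 61.5 TPM in control and 133, 119 and 124 TPM in JM03. The groups did not overlap, and control replicate 3 lay between the other controls. Its log2 fold change was 1.00 ± 0.27 (SE; limma adjusted p = 0.306) with the 6 libraries, 1.00 without control replicate 3 (limma adjusted p = 0.233) and 0.98 with the length trend removed. *cytb-5.2*, the other cytochrome b5 gene of the list, had 213, 274 and 151 TPM in control and 205, 214 and 208 in JM03, with a log2 fold change of 0.016 that was -0.21 without control replicate 3. The cytochrome b5 reductase gene *hpo-19* had a log2 fold change of 0.50 (limma adjusted p = 0.490; 0.12 without control replicate 3), and T05H4.4 lay below the filter at 0.32 to 0.82 TPM.

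All 15 measured regulators of desaturase genes had log2 fold changes above 0 with the 6 libraries (median 0.78), and 11 without control replicate 3 (median 0.12). The members of smallest p were the nuclear receptor genes *nhr-66* and *nhr-13* and the acyl-CoA synthetase gene *acs-13*, at 1.11, 0.57 and 1.05 (limma adjusted p = 0.490 each), and at 0.25, 0.22 and 0.15 without control replicate 3. The best known regulators, chosen after their values were seen, were *sbp-1*, *mdt-15*, *nhr-49* and *nhr-80*. *sbp-1* had 7.14, 5.62 and 1.01 TPM in control and 7.32, 7.40 and 6.77 in JM03, and *nhr-80* 3.44, 2.87 and 1.73 against 3.65, 3.19 and 3.66. *nhr-49* had 47.5, 49.9 and 3.28 TPM in control and 50.5, 54.7 and 54.5 in JM03, so that control replicate 3 was far below all others. *mdt-15*, the Mediator subunit that works with both SBP-1 and NHR-49, had 39.1, 41.3 and 6.55 TPM against 38.2, 37.5 and 38.8.

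Of the genes that use the products, the 11 tested sphingolipid genes were all positive with a median of 0.59, and 10 were without control replicate 3 (median 0.19). The ceramide synthase gene *hyl-2* had the highest named value, 1.39 (limma adjusted p = 0.488; 0.44 without control replicate 3). The 13 genes of triglyceride and phospholipid assembly were all positive with and without that library (medians 0.76 and 0.21). Of all tested genes 72.66% and 56.45% were positive (medians 0.35 and 0.046). There *dgat-2*, a diacylglycerol acyltransferase gene, had 10.1, 7.80 and 4.86 TPM in control and 16.8, 13.04 and 10.2 TPM in JM03, just without overlap (0.76, limma adjusted p = 0.464).

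The 6 genes listed for oxidising polyunsaturated fatty acids or opening their epoxides were positive too (median 0.50). Without control replicate 3, 5 of them were positive (median 0.25). The list includes *emb-8*, the gene of the reductase that gives electrons to cytochrome P450 enzymes. The epoxide hydrolase gene *ceeh-1* had 7.43, 4.99 and 5.49 TPM in control and 10.6, 9.89 and 10.2 TPM in JM03. The groups did not overlap. JM03 minus control was 0.70 ± 0.28 on the log2 scale (SE; limma adjusted p = 0.399), 0.66 without control replicate 3 and 0.38 with the length trend removed. The 8 tested fatty acid binding protein genes, which carry fatty acids within and between tissues, were all positive with and without that library (medians 0.44 and 0.28), with *lbp-1* at 0.79 (limma adjusted p = 0.468; 0.47 without control replicate 3). The other genes of smallest p in these last lists, *cgt-2*, *sms-2*, *cyp-29A3*, *cyp-33E1*, *acl-4*, *mboa-7*, *lbp-2* and *lbp-6*, had log2 fold changes of 0.48 to 1.08 (limma adjusted p = 0.438 to 0.490), and of 0.15 to 0.53 without control replicate 3.

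**Figure D5:**
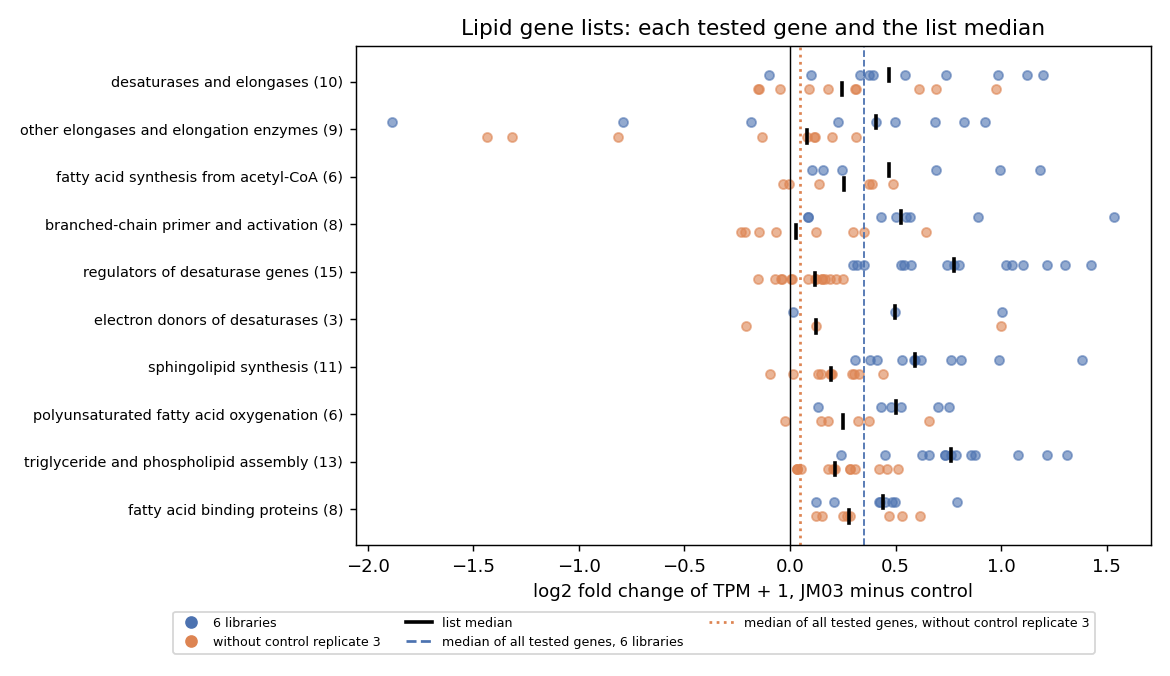
Log2 fold change of TPM + 1, JM03 minus control (horizontal axis), of every tested gene of the 10 lipid lists (numbers of tested genes in brackets), with the 6 libraries (blue) and without control replicate 3 (orange). Black bars are list medians and vertical lines are 0 and the medians of all tested genes, 0.35 and 0.046. The median of the regulators is 0.78 in the first set and 0.12 in the second.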

How the data were processed

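The authors deposited 1 table of TPM for each gene and library, at 2 decimals. The unit was taken from the values, which sum to 997816 to 998884 per library. Per the submitters' processing notes, fastp, HISAT and RSEM were used with the build WBcel235. The sources used here give no versions, settings or strand handling. Libraries were grouped by their titles. Coordinates and transcript lengths came from the WBcel235 annotation.

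TPM values are not counts, so the test planned for normalized values was used: log2(TPM + 1) of genes reaching 1 TPM in 3 or more libraries, limma 3.58.1 (R 4.3.3) with a trended, robust prior and no replicate block. Calls were made at a Benjamini-Hochberg adjusted p below 0.05 over all tested genes. Fold changes on this scale understate changes of low genes. The limma step was tested on simulated data with independent normal noise, whose spread for a gene was the same in all libraries. That simulation therefore does not cover a library such as control replicate 3. Figures used matplotlib 3.10.9.

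The 10 genes and the lists were chosen with earlier results of these data known. The text names the 10 genes, the nearest gene to each, and 3 members of smallest p per list. Outside that rule it names *elo-4*, *sbp-1*, *mdt-15*, *nhr-49*, *nhr-80*, *ivd-1*, *mccc-1*, *emb-8*, T05H4.4, the genes overlapping *elo-5* and *fat-5*, and single markers. Of the listed genes *lpd-1* and *opt-2* had no row by that symbol. In all, 14 alternative settings were planned (pseudocount 0.1, no filter, a filter at 5 TPM, quantile normalization, protein-coding rescaling, a non-robust prior, array quality weights, the replicate block and each library left out) and 2 were added after seeing the data.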

Additional observations from a re-analysis of the deposited data

How the results depend on the processing

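None of the 10 genes was called in 15 of the 16 alternative fits, and 1, *elo-6*, was called with array quality weights. Over all genes 17 were called, against 2202 with those weights, 0 with the replicate block and 5 to 17 with 1 library left out. The labels do not say whether replicate numbers pair the libraries. The deviations from group means of same-numbered libraries had correlations of -0.0203, 0.0795 and -0.146, and those of differently numbered libraries -0.278 to 0.291. With 3 libraries a group, these values cannot decide whether the libraries were paired. The log2 fold changes of *fat-5*, *fat-6*, *elo-2*, *elo-5* and *elo-6* stayed positive under all 16 alternatives, at 0.17 to 0.71, 0.25 to 1.10, 0.61 to 1.64, 0.65 to 1.46 and 0.81 to 1.56.

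The others turned. With 1 library left out *fat-1* ran from -0.15 to 0.59, *fat-2* from -0.046 to 0.64, *fat-3* from -0.24 to 0.089, *fat-7* from -0.15 to 0.53, *acly-2* from -0.006 to 1.06 and *cytb-5.2* from -0.21 to 0.22. With array quality weights *fat-1*, *fat-3*, *acly-2* and *cytb-5.2* were at -0.10, 0.23, -0.015 and -0.29. With the transcript length trend removed *fat-1*, *fat-4*, *fat-7* and *cytb-5.2* were at -0.033, -0.003, -0.16 and -0.006. Quantile normalization gave *fat-7* -0.22 and *cytb-5.2* -0.17, and rescaled protein-coding genes gave *cytb-5.2* -0.018. Quantile normalization without control replicate 3 gave *fat-1*, *fat-2*, *fat-3*, *fat-7*, *acly-2* and *cytb-5.2* values of -0.20, -0.17, 0.06, -0.11, -0.039 and -0.28. The cause was not tested. The depth is unknown, so how far it limits these values cannot be said.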
